A study of Mus musculus with 16 samples.

Results

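The collagen family is described here as every gene of the deposited tables whose symbol is Col, a number, the letter a and a number. That rule found 44 of 33641 genes. Of these 44, 29 had a mean of at least 1 TPM (the relative abundance of a transcript per unit of length, scaled to the same total in each library) in at least 1 group. By the type of assembly, 8 of 11 fibrillar genes, 7 of 9 basement membrane genes, 6 of 9 network genes, 4 of 9 fibril-associated genes and 4 of 6 transmembrane and other genes were among them. The members nearest to the limit of 1 TPM were Col4a3 (highest group mean 1.04 TPM) and Col11a2 (1.06 TPM) inside it, and Col7a1 (0.992 TPM) and Col6a4 (0.923 TPM) outside it.

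The values came from whole tissue of C57BL/6J mice aged 28 weeks: the left ventricle of the heart and subcutaneous white adipose tissue (scWAT). Mice labelled Adipo-HuR KO, called KO below, are described as lacking HuR (gene symbol Elavl1), which binds RNA, by a deletion meant for adipocytes alone, and they were set against wild-type (WT) mice. Heart was represented by 4 KO libraries (mice A25, A29, A30 and A31) and 4 WT libraries (A5, A7, A8 and A14), and scWAT by 3 KO libraries (A24, A26 and A30) and 5 WT libraries (A5, A7, A8, A12 and A14). Each library of a group is from another mouse, 5 mice gave both tissues, and the recombinase and its promoter are not named in the sources used here. The series' title names cardiac fibrosis as the question, and collagens are the main proteins of fibrotic tissue.

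Collagens are extracellular proteins whose chains wind around one another in a helix. Fibrillar chains (types I, III and V) form the tensile fibres of connective tissue, and fibril-associated chains (types XII, XIV and XVI) bind the surface of those fibres. Type IV chains form the sheet of the basement membrane under endothelium and around each muscle cell and adipocyte, with types XV and XVIII beside it, while types VI and VIII build beaded filaments and open lattices. In the heart the fibrillar chains are made mainly by fibroblasts, and type IV is also made by endothelial cells and cardiomyocytes.

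Several libraries stood apart, and the depth of every library is unknown because TPM keeps none. In scWAT, Elavl1 stood at 42.9, 42.0 and 36.2 TPM in KO libraries, above the 19.0 to 34.5 TPM of WT libraries, so every direction below is one between labels. In heart it lay at 8.45 to 15.9 TPM in KO and 6.66 to 12.6 TPM in WT libraries. The heart library A29, labelled KO, lay with WT hearts, and the KO heart A30 was the highest library for all 21 collagens tested there. WT heart A5 was the lowest WT heart for all 21. Mitochondrially encoded transcripts took 43.4% to 55.7% of TPM in KO hearts and 51.9% to 60.6% in WT hearts. In scWAT, A26 carried B and T cell transcripts, and A24 and A30 carried skeletal muscle transcripts, as given below.

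The start regions of 3 members are shown because these genes had among the largest differences in heart and stand for the fibrillar (type I and III) and network (type VIII) classes. Each run is the 250 bases before the RefSeq start of the gene on build GRCm38.p6, read 5′ to 3′ along the gene. Capitals mark motif matches on either strand, none of which overlap in these runs. The GC box was searched as GGGCGG and the TATA box as TATAAA. The CCAAT box was searched as its own name, and the AP-1 motif as TGANTCA. The regions are chr6:4505368-4505617 (plus strand), chr1:45311288-45311537 (plus strand) and chr16:57754738-57754987 (minus strand).
Col1a2: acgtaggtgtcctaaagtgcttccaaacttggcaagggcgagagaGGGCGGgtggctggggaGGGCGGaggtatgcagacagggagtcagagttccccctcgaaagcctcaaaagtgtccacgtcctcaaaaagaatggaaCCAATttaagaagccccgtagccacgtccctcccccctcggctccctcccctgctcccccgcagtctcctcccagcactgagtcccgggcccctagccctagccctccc
Col3a1: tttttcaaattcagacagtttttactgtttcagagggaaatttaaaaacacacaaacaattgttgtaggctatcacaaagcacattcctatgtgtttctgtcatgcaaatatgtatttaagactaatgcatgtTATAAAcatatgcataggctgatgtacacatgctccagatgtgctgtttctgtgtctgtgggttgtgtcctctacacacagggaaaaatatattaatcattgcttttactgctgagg
Col8a1: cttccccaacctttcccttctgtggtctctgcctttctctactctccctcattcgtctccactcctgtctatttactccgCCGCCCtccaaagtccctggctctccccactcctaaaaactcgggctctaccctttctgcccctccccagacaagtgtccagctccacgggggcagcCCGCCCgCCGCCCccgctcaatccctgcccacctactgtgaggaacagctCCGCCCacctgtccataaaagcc
Col1a2 had 2 GC boxes that began 205 and 188 bases before the start and a CCAAT box 109 bases before it. Col3a1 had no GC box and 1 TATA match, 117 bases before the start, and only 35.2% of its bases were G or C, against 62% in Col1a2 and 60.8% in Col8a1. Col8a1 had 4 GC boxes, the nearest 23 bases before the start. Of the 29 expressed members, 23 had a start region in the RefSeq table. GC boxes were found in 14 of the 23, or 60.9%, against 32.9% of 27025 start regions of all genes, whereas CCAAT boxes (7 of 23, 30.4%, against 34.5%), TATA boxes (3 of 23, 13.0%, against 13.0%) and AP-1 motifs (1 of 23, 4.35%, against 6.87%) were about as frequent as elsewhere. The motif counts are a description of letters, with no test. The 23 regions belong to expressed members, whereas the 27025 were not limited to expressed genes, so the shares are not matched for expression. Col4a1 and Col4a2, on chromosome 8, start close together on opposite strands, at bases 11312826 (minus strand) and 11312805 (plus strand). The 250 bases before each start are separate stretches and were counted apart, with GC boxes before Col4a2 but none before Col4a1. Like these genes, Col3a1 and Col5a2, Col6a2 and Col6a1, and Col4a4 and Col4a3 are direct neighbours in that annotation.

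In the left ventricle, most fibrillar and all tested network and fibril-associated collagens were higher in 3 of the 4 libraries labelled KO than in any WT heart, many of them several-fold, and near or below WT levels in the other, A29. Col5a3 was the fibrillar exception. The network chain Col6a6, whose mean was under the filter for testing, was lower on average in KO hearts. By class median the basement membrane chains differed least. With all 8 libraries none of the 21 members tested passed, and the KO hearts spread widely. In whole tissue, more cells that make a collagen and more transcript per cell cannot be told apart.

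Among fibrillar chains, Col3a1, the chain of type III collagen, stood at 344, 20.6, 1226 and 516 TPM in KO hearts A25, A29, A30 and A31, against 13.7, 41.3, 39.7 and 39.2 TPM in WT hearts A5, A7, A8 and A14. Col1a1, which gives 2 of the 3 chains of type I collagen, stood at 21.1, 3.90, 207 and 30.9 TPM in KO hearts, against 2.15, 10.1, 8.06 and 10.03 TPM in WT hearts, in the same order of mice. Its partner Col1a2 stood at 68.6, 8.46, 283 and 86.6 TPM in KO hearts, against 6.71, 19.8, 19.8 and 18.4 TPM in WT hearts. In all 3 genes A25, A30 and A31 were above the highest WT heart and A29 was inside the WT range, so the groups overlapped through A29 alone. Col5a2, a chain of the type V collagen that nucleates fibrils, had 44.5, 2.94, 91.0 and 62.7 TPM in KO hearts, against 2.50, 4.55, 4.69 and 3.96 TPM in WT hearts. Col5a1, its partner, had 7.90, 2.35, 52.6 and 11.2 TPM in KO hearts, against 1.42, 5.497, 5.44 and 5.07 TPM in WT hearts. The 2 chains of type V thus differed in size: Col5a2 stood several-fold above the highest WT heart in A25 and A31, and Col5a1 less far above it, at 7.90 and 11.2 TPM there against 5.497 TPM. Col5a3, another chain of type V, had 1.95, 0.979, 14.6 and 2.68 TPM in KO hearts and 0.578 to 3.20 TPM in WT hearts, where only A30 lay above the WT hearts. Col27a1 was low, at 1.31, 0.598, 5.67 and 1.90 TPM in KO hearts and 0.302 to 1.27 TPM in WT hearts. Their log2 fold changes, on the log2(TPM + 1) scale, were 3.05 (SE 0.98) for Col3a1, 2.73 (SE 0.79) for Col5a2, 1.997 (SE 0.81) for Col1a2, 1.92 (SE 0.90) for Col1a1, 1.25 (SE 0.69) for Col5a1, 0.63 (SE 0.40) for Col27a1 and 0.59 (SE 0.56) for Col5a3. None passed in limma (adjusted p from 0.142 to 0.521), and the median log2 fold change of all genes, against which these values are to be read, was 0.26.

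**Figure D1:**
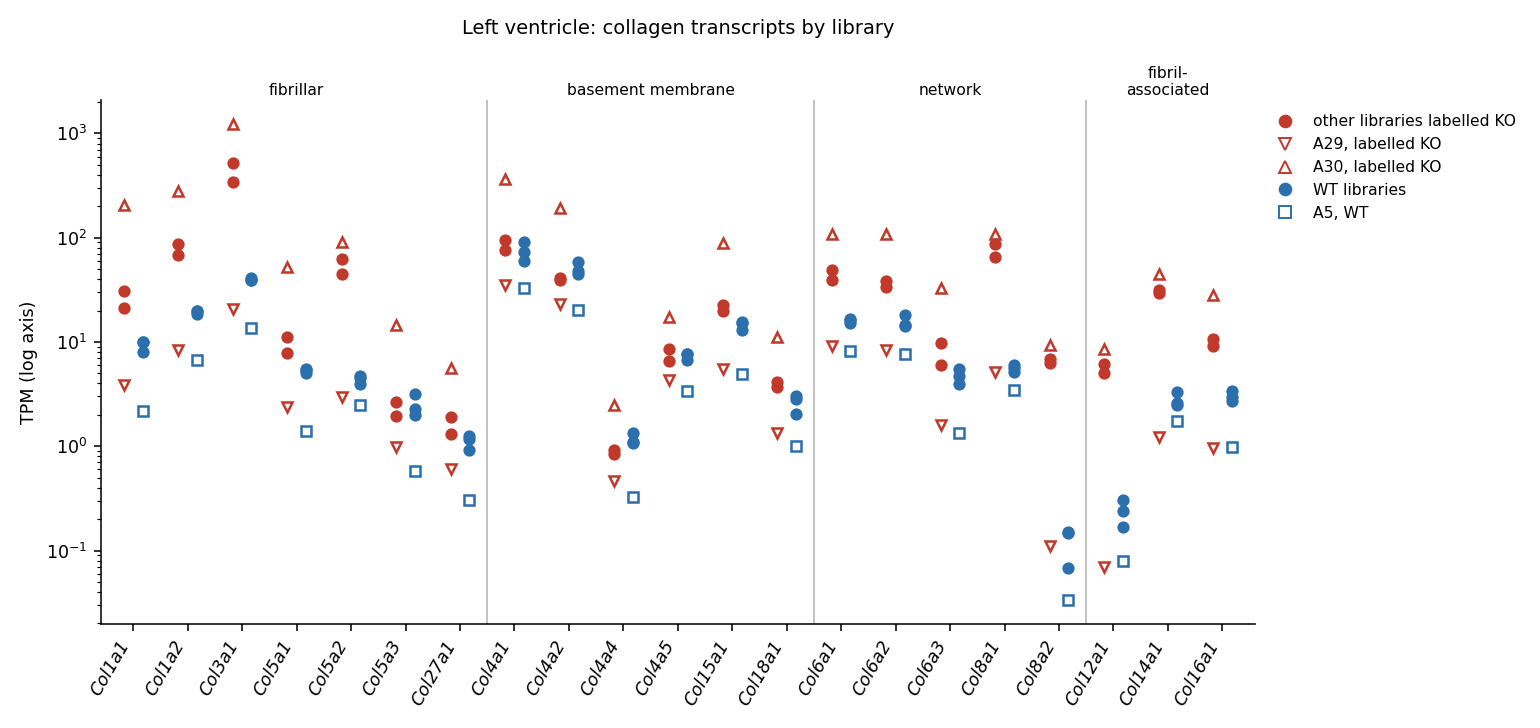
TPM (log axis) of the 21 collagens tested in the left ventricle, 1 point per library, with libraries labelled KO (red) left of WT libraries (blue) and open symbols for A29, A30 and A5. A30 is the highest point for all 21 genes, A29 lies at or near the WT points, and A25 and A31 stand clear of WT for Col3a1, Col5a2, Col8a1, Col8a2, Col12a1 and Col14a1 but not for Col4a1 or Col4a2.

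Type VIII collagen, a short-chain network collagen of vessel walls and of remodelling tissue, gave the clearest separation. Col8a1 had 65.1, 5.16, 108 and 86.9 TPM in KO hearts, against 3.44, 5.16, 5.60 and 6.00 TPM in WT hearts, and its KO mean was 66.3 ± 44.4 TPM against 5.05 ± 1.13 TPM in WT (SD, n = 4 each). Col8a2, its partner chain, had 6.81, 0.110, 9.41 and 6.35 TPM in KO hearts and 0.0334 to 0.151 TPM in WT hearts. Both chains were thus high in the same 3 KO hearts and at WT level in A29. Their log2 fold changes were 2.90 (SE 0.74) for Col8a1 and 2.21 (SE 0.58) for Col8a2 (limma adjusted p = 0.142 for both), and the pseudocount of 1 understates that of Col8a2. Type VI collagen, the beaded filament around cells, had smaller differences: Col6a1 had 39.7, 9.20, 108 and 48.9 TPM in KO hearts, against 8.26, 16.5, 16.3 and 15.1 TPM in WT hearts. Col6a2 had 33.4, 8.33, 108 and 38.2 TPM in KO hearts, against 7.62, 18.1, 14.4 and 14.4 TPM in WT hearts. Col6a3 had 5.95, 1.58, 33.0 and 9.81 TPM in KO hearts, against 1.35, 5.45, 3.99 and 4.68 TPM in WT hearts. The order was the same in the 3 chains, with A30 highest and A29 lowest of the KO hearts. Their log2 fold changes were 1.41 (SE 0.58), 1.28 (SE 0.59) and 0.98 (SE 0.65), and none passed (limma adjusted p from 0.171 to 0.354).

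All 3 fibril-associated chains tested behaved alike. Col12a1, a chain associated with fibrils under tension, had 6.09, 0.0701, 8.55 and 5.09 TPM in KO hearts and 0.0788 to 0.303 TPM in WT hearts. Col14a1, which binds fibrils of type I collagen, had 29.8, 1.22, 45.1 and 31.7 TPM in KO hearts, against 1.73, 2.58, 3.33 and 2.51 TPM in WT hearts. Col16a1 had 9.13, 0.954, 28.2 and 10.8 TPM in KO hearts, against 0.982, 3.41, 2.93 and 2.69 TPM in WT hearts. For these 3 genes A29 was below the lowest WT heart, while A25, A30 and A31 were above the highest. The log2 fold changes were 1.94 (SE 0.56), 2.36 (SE 0.78) and 1.44 (SE 0.66), with limma adjusted p of 0.142, 0.142 and 0.207.

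Basement membrane chains had the lowest class median, as given below. Col4a1, one of the 2 main chains of type IV collagen, had 75.6, 35.1, 369 and 95.7 TPM in KO hearts, against 33.2, 90.2, 59.7 and 73.1 TPM in WT hearts. Col4a2, its partner, had 38.996, 23.0, 194 and 41.4 TPM in KO hearts, against 20.4, 58.3, 45.3 and 47.5 TPM in WT hearts. Apart from A30, the KO hearts lay inside the WT range for Col4a2, and A31 alone was slightly above it for Col4a1. Col4a5, a minor type IV chain, had 6.63, 4.31, 17.5 and 8.50 TPM in KO hearts and 3.36 to 7.69 TPM in WT hearts. Col15a1 and Col18a1, whose proteins carry the antiangiogenic endostatin domains, were higher than every WT heart in A25, A30 and A31: Col15a1 had 19.7, 5.48, 88.8 and 22.4 TPM in KO hearts and 4.96 to 15.5 TPM in WT hearts. Col18a1 had 3.67, 1.33, 11.1 and 4.17 TPM in KO hearts and 1.01 to 3.05 TPM in WT hearts. The log2 fold changes were 0.70 (SE 0.58) for Col4a1, 0.37 (SE 0.56) for Col4a2, 0.37 (SE 0.38) for Col4a5, 0.91 (SE 0.65) for Col15a1 and 0.71 (SE 0.44) for Col18a1, with limma adjusted p from 0.328 to 0.696. Without A30, Col4a2 turned to -0.26 and Col5a3 to -0.030, and Col4a1 fell to 0.07, so the positive values of these genes rest on that library.

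Over all 21 members tested with the 8 libraries, 0 passed in either direction, where 0.0501% of 11981 genes were called higher and 0% lower. Before adjustment, 8 of the 21 had p under 0.05 and were higher and 0 lower, against 20.9% of all genes higher and 3.66% lower. Their median log2 fold change was 1.28, or 1.03 above the median of all genes, and 20 of 21 lay above that median, which by its definition 50% of all genes do. By class the median above all genes was 1.67 for 7 fibrillar, 1.16 for 5 network, 1.69 for 3 fibril-associated and 0.28 for 6 basement membrane members. Of the 21, 4 (Col8a2, Col12a1, Col27a1 and Col4a4) passed the filter of 1 TPM only through the KO hearts, so these counts describe the members measured and are no support for a difference.

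The heart result turned on A29. Leaving out each library in turn had been set as an alternative, but A29 is named because it lacks the differences. Without A29, 15 of the 21 members were higher and 0 lower in KO hearts (limma, 12081 genes), against 34.8% of all genes higher and 4.16% lower. The 15 were Col8a1, Col8a2, Col14a1, Col5a2, Col12a1, Col3a1, Col6a1, Col1a2, Col16a1, Col6a2, Col1a1, Col5a1, Col6a3, Col18a1 and Col15a1, which are 5 of 7 fibrillar, 5 of 5 network, 3 of 3 fibril-associated and 2 of 6 basement membrane members. Among the 17 tested members with a WT mean of at least 1 TPM, 13 passed. Col6a6 also had such a WT mean (1.04 TPM) but was lower on average in KO hearts (0.387 TPM). Its mean over the libraries of the fit was under the filter, so it was not tested. The log2 fold changes were then 4.25 (SE 0.47) for Col3a1, 3.85 (SE 0.23) for Col8a1, 3.73 (SE 0.27) for Col5a2, 3.36 (SE 0.23) for Col14a1 and 2.78 (SE 0.72) for Col1a1, against a median of 0.39 for all genes. Their limma adjusted p-values were 0.000139 for Col3a1, 7.07e-06 for Col8a1, 1.74e-05 for Col5a2, 1.22e-05 for Col14a1 and 0.0134 for Col1a1. A29 was singled out by these same values. The calls and p-values without it therefore describe the libraries that remain and are no support for a difference between the labels. Col4a1 (1.19, adjusted p = 0.0922), Col27a1 (0.92, adjusted p = 0.0633), Col5a3 (0.96, adjusted p = 0.190), Col4a5 (0.64, adjusted p = 0.174), Col4a2 (0.75, adjusted p = 0.3005) and Col4a4 (0.27, adjusted p = 0.473) did not pass in limma. Array weights give libraries that fit poorly less influence. Here A29 had a weight of 0.103, WT heart A5 0.173 and KO heart A30 0.326, against 7.26 for KO heart A25. With these weights 13 of the 21 were called higher, against 43.1% of all genes higher and 22.7% lower. All 13 were among the 15, but this fit nearly leaves A29 out, so the shared calls are no separate support. With the length and GC trends of each library removed, an alternative chosen after seeing the data, the fit without A29 called 20 of 21 higher, Col4a1 and Col4a2 included, where 22% of all genes were called higher and 23.5% lower. With TPM scaled by medians of ratios, Col15a1 (adjusted p = 0.0571) no longer passed without A29 in limma. Whether type IV collagen passed without A29 depended on that correction.

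KO hearts A25, A30 and A31 were themselves unequal. All 21 members were higher in A30 than in A25 and in A31, by a median log2 ratio of 1.69 and 1.44, whereas A25 and A31 differed by a median of -0.34 (A25 over A31). The excess of A30 over A25 tended to be larger for members with GC-rich transcripts (Pearson r = 0.61, Spearman rho = 0.54 over 21 members) and the excess over A31 likewise (r = 0.68, rho = 0.60), and the difference of WT hearts A7 and A5 followed GC in the same way (r = 0.66, rho = 0.56). The difference of A25 and A31 did not (r = -0.09, rho = -0.02). These are correlations across genes of single libraries, which share those libraries, and are given as a description. Single members departed from it: Col1a1 and Col8a2, whose transcripts have 58.9% and 59.1% G and C, were 9.82-fold and 1.38-fold higher in A30 than in A25, the largest and the smallest ratio of the 21.

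The sum of the 44 genes was 836, 140, 3023 and 1129 TPM in KO hearts A25, A29, A30 and A31, against 116, 319, 265 and 278 TPM in WT hearts A5, A7, A8 and A14. Fibrillar chains took 58.5%, 28.8%, 62.2% and 63.1% of that sum in the KO hearts and 23.5% to 30.9% in WT hearts. Basement membrane chains took 17.5%, 50.3%, 22.7% and 15.4% in the KO hearts, against 49.4% to 55.1% in WT hearts. In both shares A29 lay inside the WT range and the other 3 KO hearts lay outside it. Fibril-associated chains took 5.54%, 2.20%, 2.83% and 4.33% in KO hearts and 2.31% to 2.85% in WT hearts, and network chains 18.1%, 17.7%, 12.2% and 16.9% in KO and 14.6% to 18.1% in WT hearts. A30 thus differed from A25 and A31 in these smaller shares. Col3a1 alone took 41.1%, 14.8%, 40.6% and 45.7% of the sum in KO hearts and 11.7% to 15.0% in WT hearts. In WT hearts Col4a1 and Col4a2 led by mean TPM with Col3a1 after them, while Col3a1 led in KO hearts, but the ranges of neighbours among the first 12 of either order overlapped.

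**Figure D2:**
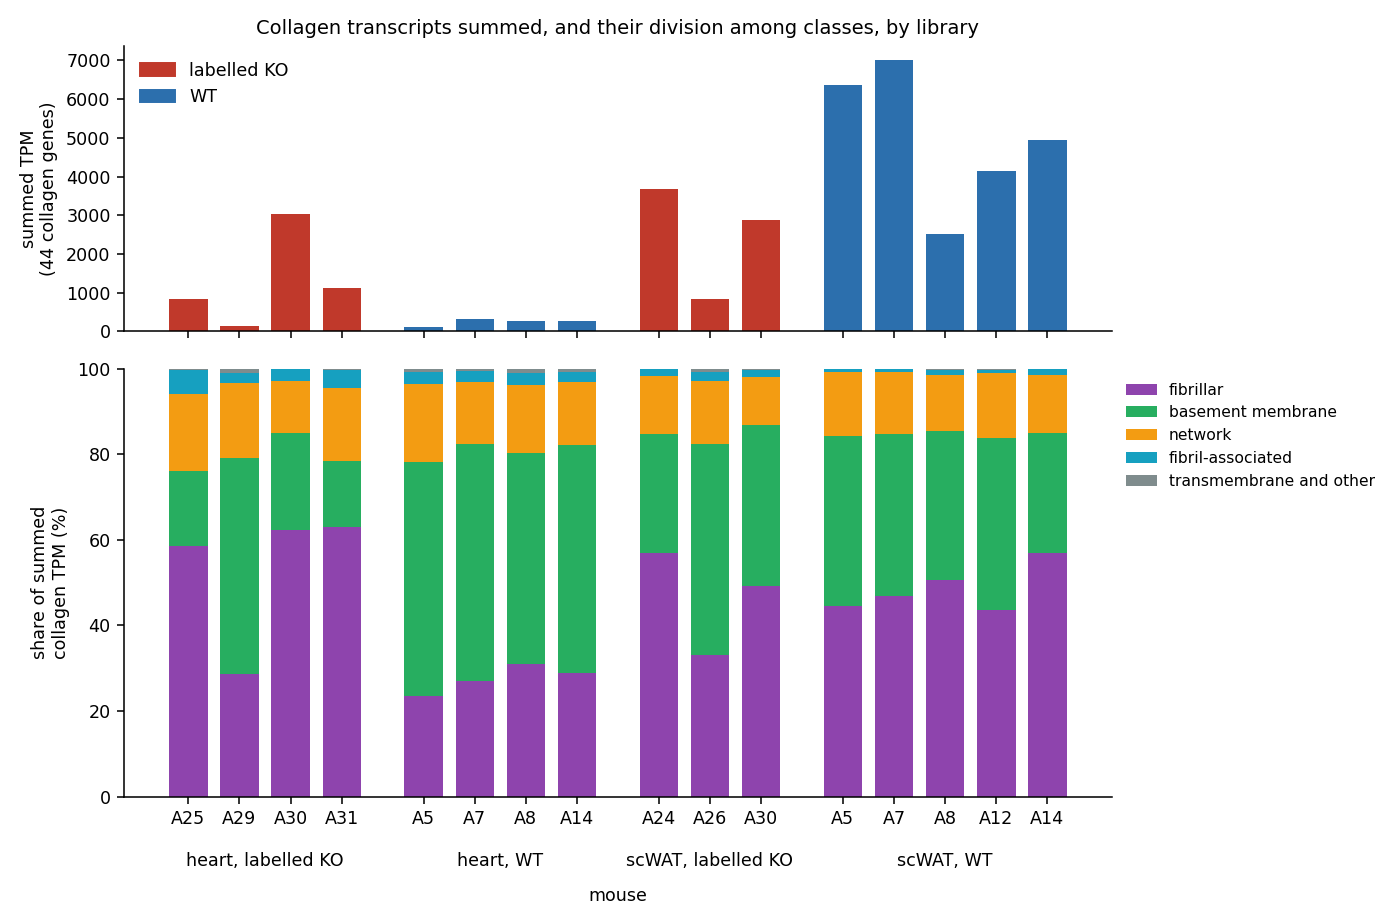
Summed TPM of the 44 collagen genes (upper panel, from 0) and the share of each class in that sum (lower panel, percent) in all 16 libraries, labelled KO left of WT within each tissue. Fibrillar chains (purple) take more than all other classes together in the KO hearts A25, A30 and A31 and 23.5% to 30.9% in WT hearts, with A29 at 28.8%.

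Transcripts that mark fibroblasts, macrophages and Schwann cells were high in the same 3 KO hearts. The 6 markers of activated fibroblasts (Postn, Comp, Cthrc1, Fap, Acta2 and Tnc) summed to 1152, 53.9, 1271 and 1535 TPM in KO hearts A25, A29, A30 and A31, against 54.6 to 93.8 TPM in WT hearts. The 6 fibroblast markers summed to 1065, 249, 1056 and 1268 TPM in KO and 208 to 294 TPM in WT hearts, and the 6 macrophage markers to 325, 46.8, 364 and 372 TPM in KO and 52.1 to 81.9 TPM in WT hearts. The cardiomyocyte markers summed to 18102, 24650, 20068 and 13923 TPM in KO and 19972 to 27934 TPM in WT hearts. Schwann cell markers summed to 94.999, 16.7, 88.7 and 85.5 TPM in KO and 16.6 to 31.8 TPM in WT hearts, and skin epithelium markers to 15.5, 0.114, 23.6 and 18.5 TPM in KO and 0.212 to 2.46 TPM in WT hearts. The skeletal muscle markers summed to 2654, 1784, 3267 and 1997 TPM in KO and 1199 to 1558 TPM in WT hearts, so A29 was above the WT hearts here too. Nearly all of that sum was Acta1 and Ckm, which heart muscle also expresses, and Myh1 and Myh4 were near 0 in every heart. Endothelial markers overlapped, at 135 to 252 TPM in KO and 118 to 189 TPM in WT hearts, as did mural markers, at 183 to 246 TPM in KO and 159 to 210 TPM in WT hearts. No fibroblast marker was at 0 in any heart, and Cthrc1 was at 0 in A14 alone. The part of these markers in the collagen values was not tested.

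Genes that make, process and bind collagen were read from lists beside the members. Of the 5 cross-linking enzymes of the lysyl oxidase family, 4 were tested in heart, and all 4 were high in the same 3 KO hearts: Lox had 24.6, 0.477, 51.8 and 40.7 TPM in KO hearts and 0.478 to 1.24 TPM in WT hearts. Loxl1, Loxl2 and Loxl3 had 16.1 to 62.8 TPM in A25, A30 and A31, 0.917 to 5.05 TPM in A29 and 0.754 to 8.88 TPM in WT hearts. Their log2 fold changes were 3.34 (SE 0.91) for Lox, 2.35 (SE 0.67) for Loxl3, 1.96 (SE 0.61) for Loxl2 and 1.72 (SE 0.60) for Loxl1, and none passed in limma with all 8 libraries (adjusted p from 0.142 to 0.147), although each was under 0.05 unadjusted. Of the prolyl and lysyl hydroxylases, their partners and the collagen glycosyltransferases, Ppib (1.35), P4ha3 (1.55), P4hb (1.17) and P3h3 (1.26) had the smallest p. Ppib, an isomerase that helps the helix fold, had 143, 40.4, 133 and 151 TPM in KO hearts and 35.1 to 44.3 TPM in WT hearts. The collagen chaperone Serpinh1 had 302, 64.1, 245 and 225 TPM in KO hearts, against 50.2 to 99.0 TPM in WT hearts. Pcolce, which speeds the cutting of procollagen, had 104, 15.3, 154 and 91.3 TPM in KO hearts, against 14.6 to 27.9 TPM in WT hearts. In each of these the 3 KO hearts were above all WT hearts and A29 was among them or beside them. With all 8 libraries 0 of 15 hydroxylation and glycosylation genes, 0 of 10 folding and secretion genes, 0 of 5 processing genes, 0 of 4 cross-linking genes and 0 of 7 receptors passed. Without A29, 11 of 15, 5 of 10, 4 of 5, 4 of 4 and 5 of 7 were called higher and 0 lower in any list, against the 34.8% of all genes called higher given above. P4ha3, Lox and the receptor chain Itga11 had WT means of 0.0402, 0.7003 and 0.522 TPM and passed the filter only through KO hearts, so these counts are a description and no support for a difference. Among receptors, Itgb1, the common beta chain of the collagen-binding integrins, had 229, 140, 251 and 273 TPM in KO hearts and 125 to 149 TPM in WT hearts.

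Of the members not tested in heart, Col28a1 had 1.07, 0.294, 1.10 and 1.48 TPM in KO hearts A25, A29, A30 and A31, against 0.242 to 0.545 TPM in WT hearts. Col9a2, named after its values had been seen, had 0.494, 0.0973, 1.29 and 0.649 TPM in KO hearts, against 0.0344 to 0.155 TPM in WT hearts. Both had the pattern of the fibrillar chains at a level under the filter. Col6a6, a minor chain of type VI collagen, went the other way, at 0.133, 0.344, 0.806 and 0.267 TPM in KO hearts and 0.388 to 1.46 TPM in WT hearts. Its WT mean was 1.04 TPM, and its low KO values kept its mean over all hearts under the filter. Col2a1, the cartilage collagen, was at or under 0.140 TPM in every heart.

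In scWAT the labels did not separate the collagens. Most major chains were lower on average in libraries labelled KO, but A26 was far below the others and none of the 25 members tested passed. Without A26 the differences in the fibrillar chains of types I and III were small.

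Col3a1 had 1145, 134 and 796 TPM in KO scWAT A24, A26 and A30, against 1479, 1864, 682, 988 and 1699 TPM in WT scWAT A5, A7, A8, A12 and A14. Col1a1 had 242, 22.7 and 152 TPM in KO scWAT, against 313, 363, 138, 161 and 284 TPM in WT scWAT, in the same order of mice. A24 and A30 lay inside the WT range of both genes, and A26 was below it. The log2 fold changes were -1.34 (SE 0.65) for Col3a1 and -1.298 (SE 0.68) for Col1a1 (limma adjusted p = 0.347 and 0.375), and -0.40 and -0.29 without A26. Col1a2 had 429, 51.5 and 241 TPM in KO scWAT and 178 to 438 TPM in WT scWAT, and its log2 fold change of -0.62 turned to 0.25 without A26.

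Col5a3 and Col15a1 had larger log2 fold changes than Col3a1 and Col1a1. Col5a3, the type V chain known from fat and other tissues, had 117, 24.4 and 95.6 TPM in KO scWAT, against 552, 426, 103, 300 and 206 TPM in WT scWAT. Only A8 of the WT libraries came near the KO libraries, and A24 was above it, so the groups overlapped. Col15a1 had 146, 29.9 and 73.8 TPM in KO scWAT, against 588, 577, 81.3, 235 and 219 TPM in WT scWAT. Col18a1 had 66.8, 25.9 and 65.3 TPM in KO scWAT, against 166, 146, 71.9, 105 and 89.1 TPM in WT scWAT, and was the only member whose KO values all lay below the WT values. The log2 fold changes were -2.05 (SE 0.62) for Col5a3, -1.96 (SE 0.70) for Col15a1 and -1.17 (SE 0.37) for Col18a1 (limma adjusted p = 0.225, 0.253 and 0.229). Without A26 they were -1.36, -1.37 and -0.73. Col4a1 had 557, 262 and 658 TPM in KO scWAT and 496 to 1186 TPM in WT scWAT, and Col4a2 had 246, 89.2 and 279 TPM in KO scWAT and 225 to 745 TPM in WT scWAT. For both genes A26 alone was outside the WT range.

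Of the network chains, Col6a1 had 194, 45.4 and 128 TPM in KO scWAT and 153 to 378 TPM in WT scWAT, and Col6a2 had 174, 41.1 and 124 TPM in KO scWAT and 126 to 430 TPM in WT scWAT. Their log2 fold changes were -1.37 (SE 0.46) and -1.54 (SE 0.51), with limma adjusted p of 0.239 and 0.236, and -0.78 and -0.94 without A26. Col6a3, the chain that carries endotrophin, a fragment released in fat, had 119, 31.6 and 60.3 TPM in KO scWAT and 42.3 to 201 TPM in WT scWAT. Col8a1, high in 3 KO hearts, was low in fat, at 1.68, 0.507 and 2.99 TPM in KO scWAT and 1.87 to 3.21 TPM in WT scWAT. Col12a1 had 4.12, 1.03 and 4.36 TPM in KO scWAT and 0.596 to 6.31 TPM in WT scWAT, and Col14a1 had 40.2, 11.2 and 31.04 TPM in KO scWAT and 5.54 to 34.2 TPM in WT scWAT. Col27a1 was higher in all 3 KO libraries, at 6.64, 4.23 and 2.97 TPM, than in WT scWAT, at 0.622 to 2.96 TPM, although A30 exceeded the highest WT library, A5, only slightly. Its log2 fold change was 0.94 (SE 0.33, limma adjusted p = 0.249).

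Of the 25 members tested in scWAT, 0 passed in either direction, where 0.0146% of 13682 genes were called higher and 0.00731% lower. Before adjustment, 1 was higher and 8 were lower at p under 0.05, against 8.11% and 7.52% of all genes. The median log2 fold change was -0.77, with 4 of 25 above the median of all genes, which was 0.03. The members without overlap were 1 higher and 1 lower, against 5.23% and 5.06% of all genes. Without A26, 0 of 26 passed, against 0.923% of all genes higher and 0.0447% lower, and the median was -0.27. Of the lists of collagen-making genes and receptors, 0 of 13, 0 of 10, 0 of 6, 0 of 5 and 0 of 7 members passed in the order given for heart.

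**Figure D3:**
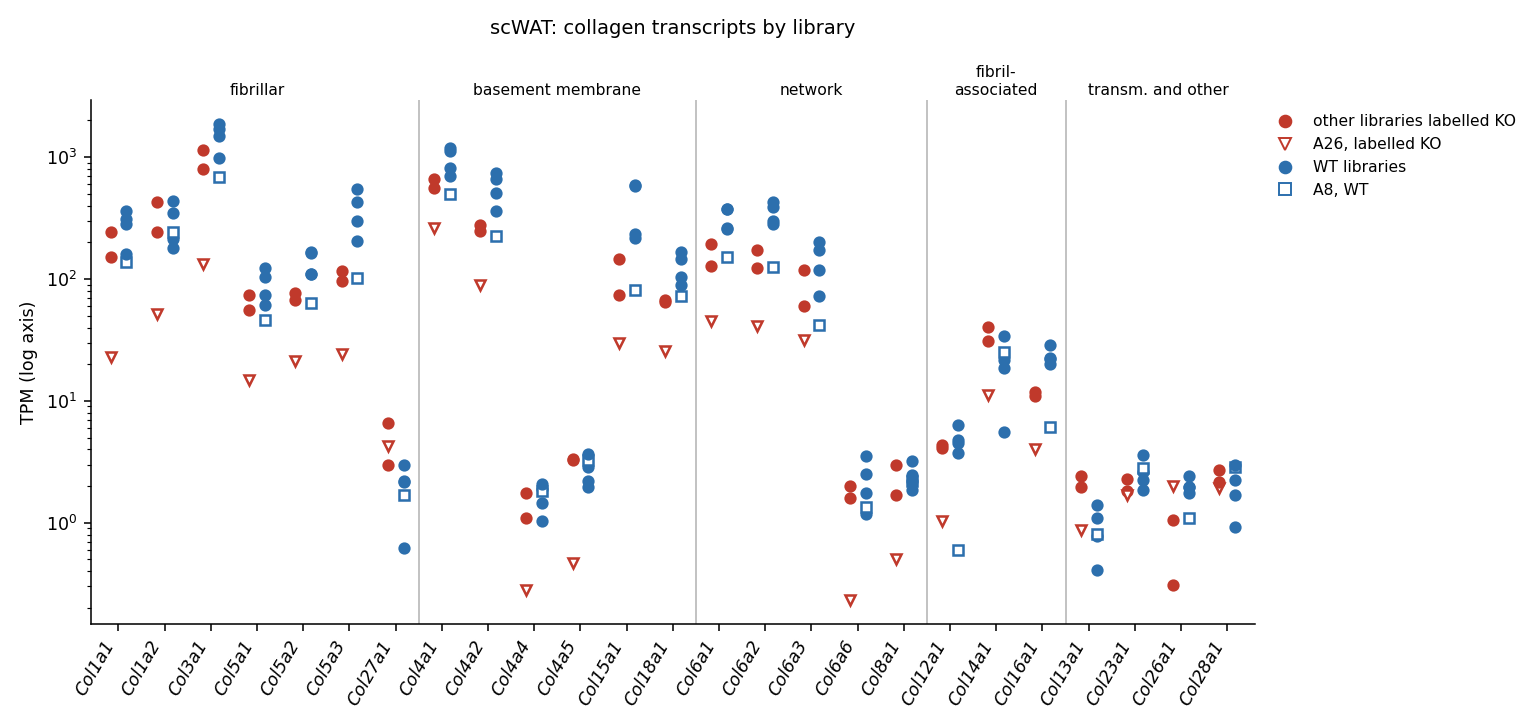
TPM (log axis) of the 25 collagens tested in scWAT, 1 point per library, with libraries labelled KO (red) left of WT libraries (blue) and open symbols for A26 and A8. A26 is the lowest point for most fibrillar, basement membrane and network genes, and the other KO points lie within or near the WT range.

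In A26, 19 of the 25 members were below the lowest WT library, against 4 of 25 in A24 and 6 of 25 in A30. The sum of the 44 genes was 3671, 831 and 2873 TPM in KO scWAT A24, A26 and A30, against 6366, 7022, 2525, 4133 and 4943 TPM in WT scWAT. The 6 markers of B and T cells summed to 9.63, 491 and 8.52 TPM in KO scWAT and 3.93 to 20.0 TPM in WT scWAT. The 6 fibroblast markers summed to 2917, 1006 and 2501 TPM in KO and 1929 to 2906 TPM in WT scWAT. The skeletal muscle markers summed to 3148, 222 and 5794 TPM in KO scWAT and 48.7 to 600 TPM in WT scWAT, and adipocyte markers to 37747 to 49585 TPM in KO and 34252 to 55432 TPM in WT scWAT. Of the 24 markers in these 4 lists only the fibroblast marker Tcf21 was under 1 TPM in every scWAT library, and it was at 0 in A5. The part of these cells in the collagen values was not tested. The scWAT shares of the classes overlapped, with fibrillar chains at 33.1% to 57.0% in KO and 43.5% to 56.9% in WT scWAT.

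An interaction term over all 16 libraries asked whether KO and WT differed by another amount in heart than in scWAT. None of 20 members passed, where 0.00867% of 11536 genes were called higher in heart than in scWAT and 0.052% lower. Before adjustment, 13 of the 20 were higher and 0 lower at p under 0.05, against 17% and 3.42% of all genes. The largest were Col3a1 at 4.39 (SE 1.32, limma adjusted p = 0.102), Col5a2 at 3.98 (SE 1.02, adjusted p = 0.0898), Col8a1 at 3.31 (SE 0.90, adjusted p = 0.0898) and Col1a1 at 3.22 (SE 1.26, adjusted p = 0.169) on the log2 scale. Without A29, 16 of 20 passed, against 22.4% of all genes higher and 2.27% lower, a description only, because A29 was singled out by its collagen values. With the length and GC trends removed 6 of 20 passed with all libraries, against 2.3% and 1.16%.

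In WT mice, heart carried much less collagen transcript than scWAT, as it did transcript of most other genes. Col3a1 was 33.5 ± 13.2 TPM in WT heart (SD, n = 4) and 1342 ± 495 TPM in WT scWAT (n = 5), and Col4a1 64.0 ± 24.1 TPM in heart and 862 ± 288 TPM in scWAT. Col5a3 was 2.01 ± 1.09 TPM in heart and 317 ± 177 TPM in scWAT. No library of either tissue overlapped the other in these 3 genes. The log2 fold changes, heart over scWAT, were -5.31 (SE 0.36), -3.75 (SE 0.31) and -6.59 (SE 0.43) for Col3a1, Col4a1 and Col5a3 (limma adjusted p = 4.62e-08, 2.33e-07 and 3.66e-08), against a median of -1.22 for all genes. Of 25 members tested, 19 were lower and 2 higher in heart, where 77.7% of 13727 genes were lower and 8.55% higher, so the count is close to that of all genes. Read against the median of all genes, 17 of 25 lay below it, and relative to it the class medians were -3.37 for fibrillar and -3.01 for network members.

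Those higher in heart were Col8a1 and Col4a5. Col8a1 had 3.44 to 6.00 TPM in WT heart and 1.87 to 3.21 TPM in WT scWAT, without overlap (log2 fold change 0.83, SE 0.19, limma adjusted p = 0.00114). Col4a5 had 3.36 to 7.69 TPM in WT heart and 1.95 to 3.68 TPM in WT scWAT, with overlap (0.92, SE 0.23, limma adjusted p = 0.00271). The chains tested that did not pass were Col6a6, Col27a1, Col4a4 and Col4a3 (limma adjusted p from 0.0501 to 0.0649). Mitochondrial transcripts took 51.9% to 60.6% of TPM in WT hearts, so the other genes share the rest there. Tissue and sequencing run cannot be told apart, because the heart files alone carry a run code in their names.

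**Figure D4:**
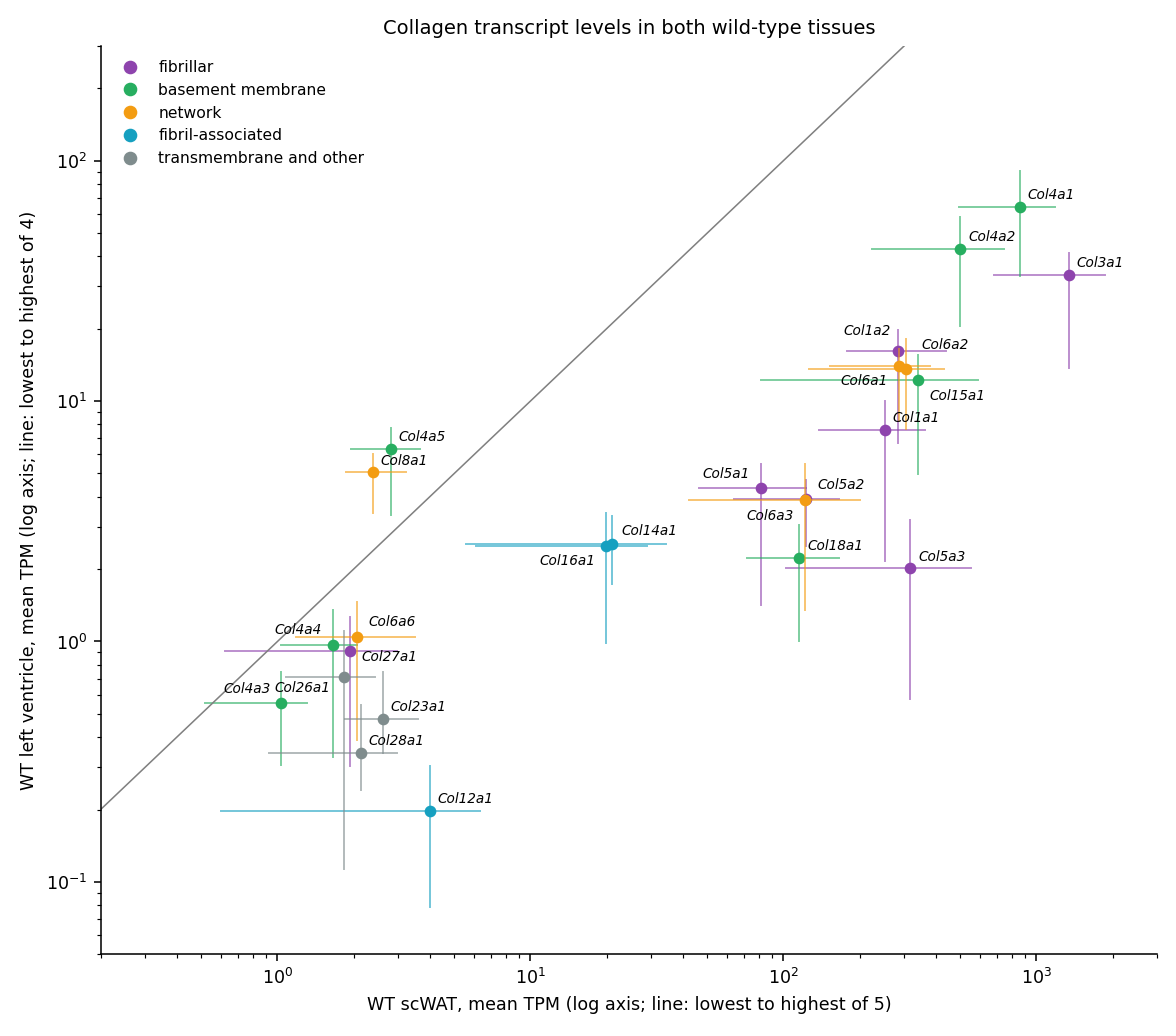
Mean TPM of the 25 collagens tested between WT tissues, left ventricle (vertical, log axis, 4 libraries) against scWAT (horizontal, log axis, 5 libraries), with lines from the lowest to the highest library and the diagonal of equal TPM. Col4a5 and Col8a1 lie above the diagonal, and Col5a3, Col3a1 and Col18a1 lie farthest below it.

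Ratios of chains within a library do not depend on how that library was scaled, but they can still carry a trend with GC such as that described above. The transcripts of Col5a1 and Col5a2 have 58.0% and 49.6% G and C, and those of Col1a1 and Col3a1 58.9% and 52.5%. The part of GC in the ratios was not tested. In KO hearts Col3a1 over Col1a1 was 16.3, 5.30, 5.92 and 16.7 (A25, A29, A30, A31) and 3.91 to 6.34 in WT hearts. Col5a1 over Col5a2 was 0.178, 0.802, 0.578 and 0.178 in KO hearts and 0.566 to 1.28 in WT hearts. A25 and A31 thus shared ratios that A30 did not, although the 3 hearts were alike in total share of fibrillar chains. Col8a2 over Col8a1 was 0.105, 0.0212, 0.0871 and 0.0731 in KO hearts and 0.00972 to 0.0263 in WT hearts (mean 0.0715 ± 0.0359 against 0.0186 ± 0.0084, SD, n = 4 each). Col8a2 was near 0 in WT hearts, and with a pseudocount of 1 the log2 difference of this ratio, KO minus WT, turned to -0.69, against 1.85 without one. The 2-sided exact permutation p was 0.0857 for each of these 3 ratios and 0.190 after adjustment over 15 ratios, where 0.0286 is the smallest p that 4 against 4 libraries allow. In scWAT Col4a2 over Col4a1, 2 chains of the same molecule whose genes start close together, was 0.442, 0.341 and 0.425 in KO libraries, against 0.453 to 0.629 in WT libraries. The KO values all lay below the WT values, with means of 0.403 ± 0.054 (SD, n = 3) and 0.564 ± 0.077 (SD, n = 5), an exact permutation p of 0.0357 and an adjusted p of 0.190. In heart the same ratio was 0.516, 0.655, 0.526 and 0.433 in KO libraries and 0.616 to 0.759 in WT libraries (exact permutation p = 0.114, adjusted p = 0.190). None of the 15 ratios passed after adjustment.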

How the data were processed

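RNA of 16 libraries from whole left ventricle or scWAT was sequenced, per the labels' protocols from flash-frozen tissue, with Trizol extraction and a TruSeq RNA kit. The authors deposited 1 value per gene and library as TPM, scaled to a total of 1000000 in each, per the file headers and the values. TPM means transcripts per 1000000. No source used here names the aligner, annotation or build, and the read depth is unknown, so no counting error can be given.

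Genes averaging 1 TPM or more across the compared libraries were tested with limma 3.58.1 (R 4.3.3, moderated test with a mean trend) on log2(TPM + 1), with Benjamini-Hochberg adjustment over all genes tested and a threshold of 0.05. Chain ratios were compared with a 2-sided exact permutation test (scipy 1.17.1, Python 3.11.15). Transcript length and GC came from GENCODE M21, and start regions from RefSeq. The fits were tested on simulated data. The members and lists were chosen with earlier results of these data known. Every member with a group mean of at least 1 TPM could be named, and from each list of collagen-making genes up to 4 with the smallest p per tissue.

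The labels give 5 mice with both tissues (A5, A7, A8, A14 and A30). Their deviations from the group means correlated at 0.04, 0.06, 0.17, 0.12 and -0.0017 between tissues over 11536 genes. Other pseudocounts, filters and scalings, array weights, a shared fit, a replicate block and leaving out each library were tried, and removal of length and GC trends was added after seeing the data. The names of the scWAT libraries differ in style, with or without a genotype code. For scWAT that style as a covariate and the plain names alone were also tried, and 0 collagens passed under each.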

Additional observations from a re-analysis of the deposited data

Results flagged for a closer look

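Of 89 groups of library values examined, 7 had a library far from the others, and chance alone marks about 1 in 20 groups. The groups share libraries, and all 7 were marked through heart A30 or heart A5. That rate, which takes groups as independent, is therefore no measure of chance here. The KO heart A30 stood far above the other KO hearts for Col1a1 (207.3 TPM, others 3.897 to 30.91 TPM), Col5a3 (14.59 TPM, others 0.9788 to 2.683 TPM) and Col4a2 (194.1 TPM, others 23.01 to 41.43 TPM). The WT heart A5 stood far below the other WT hearts for Col1a2 (6.71 TPM, others 18.38 to 19.78 TPM), Col3a1 (13.67 TPM, others 39.24 to 41.3 TPM) and Col5a1 (1.415 TPM, others 5.069 to 5.497 TPM). A5 was also low in the ratio of Col5a1 to Col5a2 (0.5658, others 1.161 to 1.28).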

How the results depend on the processing

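With all libraries 0 of 21 collagens passed in heart and 0 of 20 in the interaction. The heart count was 13 with array weights, 3 in a shared fit over 16 libraries, 15 without A29 and 20 without A29 with length and GC trends removed, and it ranged from 0 to 15 when libraries were left out. The interaction count was 2 with TPM scaled by medians of ratios, 2 after quantile normalization, 13 with array weights and 6 with length and GC trends removed, and it ranged from 0 to 16 when libraries were left out. The scWAT count stayed at 0 and the WT tissue count at 21 to 24 when libraries were left out. Over the other settings the WT tissue count, 21 in the report, ranged from 17 of 17 members tested at 5 TPM to 28 of 44 with no filter.

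With mouse as a replicate block, the interaction count was 0 and the WT tissue count 21, the same counts of collagens as without the block. Array weights turned Col4a2 (-0.27) and Col5a3 (-0.10) in heart and Col12a1 in scWAT (0.0034), and a pseudocount of 1 turned the heart log2 ratios Col1a1/Col1a2 (-0.075) and Col8a2/Col8a1 (-0.69). Leaving out libraries gave ranges that cross 0 for Col4a2 (-0.26 to 0.75) and Col5a3 (-0.030 to 0.96) in heart and for Col14a1 (-0.0013 to 0.91), Col1a2 (-1.26 to 0.25) and Col12a1 (-0.60 to 0.23) in scWAT. The same held for the log2 ratios Col1a1/Col1a2 in heart (-0.24 to 0.18) and Col3a1/Col1a1 (-0.11 to 0.050) and Col4a1/Col1a1 (-0.15 to 1.01) in scWAT. The cause was not tested. Of the values for single genes and ratios, 403 under other settings and 396 with a library left out kept their direction and their side of the threshold, 16 and 34 passed only under the alternative, and 5 and 13 changed sign. Depth limits cannot be given from TPM.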
